A study of Homo sapiens with 24 samples.

Results

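10 cell cycle genes were followed: the cyclins CCND1, CCND3, CCNE1, CCNE2, CCNA2, CCNB1 and CCNB2, the cyclin-dependent kinases CDK1 and CDK2, and the phosphatase CDC25A. A gene counted as measured if the platform annotation gives it a probe whose detection p lay below 0.01 on 3 or more of the 24 arrays. That held for 9 of the 10 genes and 12 of their 14 probes, among 10345 genes and 17633 probes measured in all. The single CCNE2 probe was detected on 0 arrays, with raw intensities of 90.5 to 116 and a lowest detection p of 0.166, so CCNE2, a second partner of CDK2 at entry to S phase, has no level here.

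The cells were LNCaP, an established human prostate cancer line that responds to androgen, grown in RPMI with serum and plated directly onto the treatment. They received ST045849, a small-molecule inhibitor of O-GlcNAc transferase (OGT, which attaches N-acetylglucosamine to serine and threonine of nuclear and cytosolic proteins), or its vehicle alone, or siRNA that targets OGT (siOGT) or its scrambled control. Exposure lasted 12 or 24 hours. Each of the 8 groups had 3 arrays, which the submitters called biological replicates, and total RNA was read on one-colour Illumina bead arrays. Neither the compound's dose nor the siRNA sequence nor the slide of each array is given in the sources used here, and all groups come from a single cell line.

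Cyclins switch on their kinase partners in turn. D-type cyclins with CDK4 or CDK6 begin the phosphorylation of the retinoblastoma protein in G1, cyclin E with CDK2 carries cells into S phase, cyclin A2 works with CDK2 in S phase and with CDK1 in G2, and cyclin B with CDK1 drives mitosis. CDC25A removes the inhibitory phosphates that WEE1 and PKMYT1 place on the CDKs. Transcripts of several of these genes rise and fall with the cycle, in part through promoter elements for E2F factors and, for the mitotic genes, through the cell cycle homology region (CHR) and CCAAT boxes.

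Levels are normalized log2 intensities (normexp background correction with an offset of 16, then quantile normalization), and a difference was called at an adjusted p under 0.05 in 1 limma fit of 8 group means over 10345 genes. The offset draws differences of dim genes toward 0. Between 13993 and 16246 of 47323 probes were detected per array. All 7 luminal prostate markers that had a probe, out of 9, were detected on 24 arrays. Of 7 basal, stromal, blood and endothelial markers with a probe only VIM was detected. Its raw intensities of 204 to 373 were like those of KLK3 (181 to 363), KLK2 (162 to 275) and KRT18 (186 to 364). HOXB13 (351 to 822), KRT8 (447 to 986), FOLH1 (507 to 1230) and TMPRSS2 (760 to 2219) had higher ranges. The siRNA lowered its target: OGT stood at 7.19 ± 0.43 against 8.90 ± 0.12 with scrambled siRNA at 12 hours (SD, n = 3; limma log2 difference -1.70, adjusted p = 0.0040) and at 7.06 ± 0.67 against 8.89 ± 0.25 at 24 hours (-1.83, adjusted p = 0.000679). With ST045849 the OGT transcript differed from vehicle by 0.48 at 12 hours and 0.50 at 24 hours, and neither passed (limma adjusted p = 0.207 and 0.122). The vehicle arrays fell into 2 sets on the first principal component, and the other treatments were assigned to the sets by their time and replicate number. The first set holds 12 hours replicate 3 and 24 hours replicates 1 and 3 of each treatment, the second set holds 12 hours replicates 1 and 2 and 24 hours replicate 2, and what the sets stand for is not given in the labels. Groups of the same time hold equal numbers from each set, whereas comparisons between times mix time with set.

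Most of these transcripts were lower with ST045849, among them the G1/S genes CCNE1 and CDC25A at both times and the B-type cyclins at 24 hours. At 12 hours 5 of the 9 measured genes fell (CCND3, CCNE1, CDK2, CDC25A and CDK1) and 0 rose, where 11% of all genes were called and 5.28% fell. At 24 hours 8 of 9 fell, all but CCND1, where 24.3% of all genes were called and 10.7% fell. All genes split into 1406 higher and 1110 lower at 24 hours, and with median scaling in place of quantile normalization into 362 higher and 1539 lower, with a median of all genes of -0.14. Over the 9 genes the median log2 difference was -0.68 at 12 hours and -0.90 at 24 hours, and over all genes it was 0.00 and 0.03. On all 6 ST045849 arrays the level lay below all 18 other arrays for 6 genes (CCND3, CCNE1, CCNA2, CDK1, CDK2 and CDC25A), as it did for 3.62% of all genes. RNA came from whole cultures, so fewer cells in a given phase and less RNA per cell cannot be told apart.

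**Figure D1:**
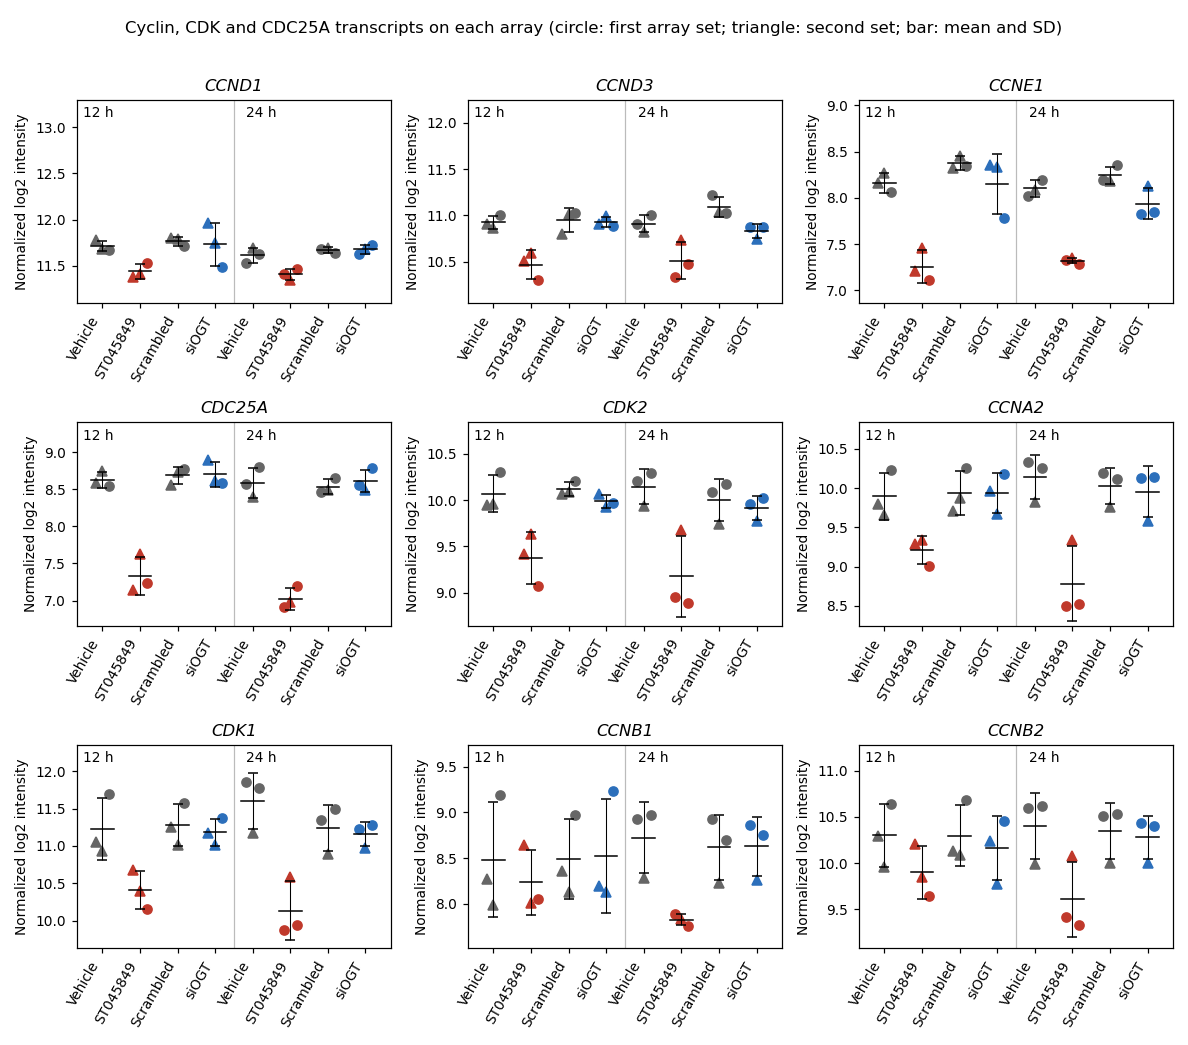
Normalized log2 intensity of each of the 9 measured genes on the 24 arrays, by treatment (ST045849 in red, siOGT in blue, vehicle and scrambled in grey) and time; circles are arrays of the first set, triangles of the second, and bars give mean and SD of 3 arrays. Each panel has its own vertical range. In 6 panels every red point lies below every other point, and in the CCNB1 and CCNB2 panels circles and triangles separate in the vehicle, scrambled and siOGT groups.

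CDC25A (ILMN_1711005), the phosphatase that activates CDK2 and CDK1, was lower with ST045849 at both times. At 12 hours the vehicle arrays read 8.58, 8.75 and 8.55 and the ST045849 arrays 7.14, 7.63 and 7.24. At 24 hours vehicle read 8.56, 8.40 and 8.80 and ST045849 6.91, 6.98 and 7.19. The highest ST045849 array (7.63) thus lay well below the lowest of the 18 others (8.40). The log2 difference was -1.29 ± 0.13 at 12 hours (SE; limma adjusted p = 2.6e-06), or 2.45-fold lower, and -1.56 ± 0.13 at 24 hours (adjusted p = 1.08e-07), or 2.95-fold lower. A second CDC25A probe, detected on 17 of 24 arrays, differed by -1.04 and -0.95. The CDC25A promoter is shown because it holds 1 of the 4 E2F words searched, found in 3.14% of 35116 promoters of the same length. The sequence is from RefSeq (GRCh38.p14) and runs from 250 bases before to 30 bases after the annotated start, and capitals mark TTTGGCGC, 44 bases before the start, and both CCAAT boxes, here as ATTGG on the reverse strand.
CDC25A, chr3:48188388-48188667, minus strand: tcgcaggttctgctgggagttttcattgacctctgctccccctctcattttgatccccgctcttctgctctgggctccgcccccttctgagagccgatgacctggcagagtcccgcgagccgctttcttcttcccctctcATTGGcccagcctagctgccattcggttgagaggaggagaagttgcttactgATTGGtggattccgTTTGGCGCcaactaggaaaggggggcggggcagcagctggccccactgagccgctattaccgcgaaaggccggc

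CCNE1 (ILMN_2374425), the cyclin that activates CDK2 for S phase entry, fell by a like amount at both times. Vehicle arrays read 8.16, 8.27 and 8.06 at 12 hours and ST045849 arrays 7.21, 7.46 and 7.11. At 24 hours vehicle read 8.02, 8.09 and 8.20 and ST045849 7.32, 7.35 and 7.29. The groups did not overlap at either time, as with 14.8% of all genes that lay lower in this way at 12 hours and 17.5% at 24 hours. The log2 difference was -0.91 ± 0.13 (adjusted p = 0.0001) at 12 hours and -0.78 ± 0.13 (adjusted p = 0.000234) at 24 hours. A second CCNE1 probe was detected on 0 arrays.

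CDK2 (ILMN_1665559), the kinase that cyclins E and A2 activate, read 9.95, 9.96 and 10.30 with vehicle and 9.42, 9.64 and 9.07 with ST045849 at 12 hours. At 24 hours it read 10.21, 9.93 and 10.30 with vehicle and 8.96, 9.68 and 8.89 with ST045849. The ST045849 arrays were lower without overlap, and the array of the second set at 24 hours, replicate 2, lay nearest to vehicle. The log2 difference was -0.69 ± 0.18 (adjusted p = 0.0153) at 12 hours and -0.97 ± 0.18 (adjusted p = 0.00056) at 24 hours, and a second probe gave -0.83 and -0.93. The 12 hour call was lost without vehicle replicate 3 (-0.58, adjusted p = 0.0922) or ST045849 replicate 3 (-0.54, adjusted p = 0.103), which are that time's arrays of the first set.

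The D-type cyclins answer to growth signals in G1. CCND3 (ILMN_1668721) read 10.90, 10.87 and 10.9996 with vehicle and 10.51, 10.60 and 10.30 with ST045849 at 12 hours, and 10.91, 10.82 and 10.9996 against 10.33, 10.73 and 10.47 at 24 hours. CCND3 fell, with a log2 difference of -0.46 ± 0.11 at 12 hours and -0.40 ± 0.11 at 24 hours (adjusted p = 0.00831 and 0.00863). The gap to the other arrays was narrow, 10.73 on the highest ST045849 array against 10.74 on the lowest other array. Without ST045849 replicate 3 at 12 hours (-0.37, adjusted p = 0.0631) or ST045849 replicate 1 at 24 hours (-0.31, adjusted p = 0.0613) the call was lost. CCND1 (ILMN_1688480) read 11.78, 11.69 and 11.68 with vehicle and 11.38, 11.41 and 11.53 with ST045849 at 12 hours, and 11.53, 11.69 and 11.63 against 11.41, 11.34 and 11.47 at 24 hours. Its groups did not overlap, yet the differences of -0.27 ± 0.094 (adjusted p = 0.0651) and -0.21 ± 0.094 (adjusted p = 0.116) did not pass. CCND1 passed at 24 hours with median scaling (-0.43, adjusted p = 0.0220), where the median of all genes was -0.14 and the difference relative to it -0.29. It passed at 12 hours with no background correction or with the authors' processed values (both -0.27, adjusted p = 0.0304).

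CCNA2 (ILMN_1786125), the S phase and G2 cyclin, read 9.79, 9.66 and 10.23 with vehicle and 9.29, 9.34 and 9.01 with ST045849 at 12 hours. At 24 hours the readings were 10.34, 9.82 and 10.26 with vehicle and 8.49, 9.33 and 8.52 with ST045849. The groups were apart at both times. The 12 hour difference of -0.68 ± 0.23 missed the threshold (adjusted p = 0.0563) and passed under several alternatives, such as the array set as a block (adjusted p = 0.0415) and no background correction (-0.61, adjusted p = 0.0245), and at 24 hours CCNA2 fell by 1.36, or 2.56-fold (-1.36 ± 0.23, adjusted p = 0.000256). The lowest readings came from 24 hours replicates 1 and 3, arrays of the first set.

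CDK1 (ILMN_1747911), the mitotic kinase, read 11.06, 10.93 and 11.70 with vehicle and 10.67, 10.39 and 10.16 with ST045849 at 12 hours. At 24 hours vehicle read 11.85, 11.17 and 11.78 and ST045849 9.88, 10.58 and 9.94. No ST045849 array reached a vehicle array at either time. The log2 difference was -0.82 ± 0.23 (adjusted p = 0.0259) at 12 hours and -1.46 ± 0.23 (adjusted p = 0.000156), or 2.76-fold lower, at 24 hours. A second CDK1 probe gave -0.98 (adjusted p = 0.0566 over all probes) and -1.83 (adjusted p = 0.000393). The 12 hour call was lost without vehicle replicate 3 (-0.59, adjusted p = 0.167), ST045849 replicate 3 (-0.70, adjusted p = 0.126) or ST045849 replicate 2 (-0.81, adjusted p = 0.0623).

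The B-type cyclins, which bind CDK1 for mitosis, overlapped between vehicle and ST045849 at 12 hours. CCNB1 (ILMN_1712803) read 8.27, 7.99 and 9.20 with vehicle and 8.64, 8.01 and 8.05 with ST045849 at 12 hours (difference -0.25 ± 0.32, adjusted p = 0.67), and 8.93, 8.28 and 8.97 against 7.89, 7.83 and 7.76 at 24 hours (-0.90 ± 0.32, adjusted p = 0.0432). The 24 hour ST045849 arrays were close together and below vehicle. CCNB2 (ILMN_1801939) read 10.30, 9.96 and 10.65 with vehicle and 10.21, 9.85 and 9.64 with ST045849 at 12 hours (-0.40 ± 0.25, adjusted p = 0.326), and 10.59, 9.99 and 10.62 against 9.42, 10.07 and 9.33 at 24 hours (-0.79 ± 0.25, adjusted p = 0.0223). At 24 hours ST045849 replicate 2 (10.07) lay above vehicle replicate 2 (9.99), so these groups overlapped. Both 24 hour calls were close to the threshold: leaving out vehicle replicate 1 or 3 or ST045849 replicate 1 or 3 ended them (CCNB1 -0.78 to -0.93, adjusted p = 0.0836 to 0.146, and CCNB2 -0.65 to -0.70, adjusted p = 0.0881 to 0.105), and for CCNB1 so did leaving out ST045849 replicate 2 (-0.90, adjusted p = 0.0826).

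The promoters of CCNA2, CCNB1, CCNB2 and CDK1, the S phase and G2/M genes, are shown side by side as a description. Their part in the levels above was not tested. They come from the same RefSeq table and window, and capitals mark E2F words (TTTCCCGC, TTTCGCGC, TTTGCCGC or TTTGGCGC), CHR words (TTTGAA or TTCGAA) and CCAAT on either strand, none of which overlap each other in these windows.
CCNA2, chr4:121823854-121824133, minus strand: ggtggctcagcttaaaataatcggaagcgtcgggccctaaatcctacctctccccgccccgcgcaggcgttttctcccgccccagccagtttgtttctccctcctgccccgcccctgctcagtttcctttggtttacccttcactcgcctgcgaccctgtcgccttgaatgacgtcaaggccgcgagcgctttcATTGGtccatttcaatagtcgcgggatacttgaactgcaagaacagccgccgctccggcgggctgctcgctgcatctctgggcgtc
CCNB1, chr5:69166900-69167179, plus strand: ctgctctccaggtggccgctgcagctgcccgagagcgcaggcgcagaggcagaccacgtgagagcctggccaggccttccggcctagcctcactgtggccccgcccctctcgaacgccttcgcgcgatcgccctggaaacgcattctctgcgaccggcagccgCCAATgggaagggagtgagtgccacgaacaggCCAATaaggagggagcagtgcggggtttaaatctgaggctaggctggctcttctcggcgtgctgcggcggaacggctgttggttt
CCNB2, chr15:59104896-59105175, plus strand: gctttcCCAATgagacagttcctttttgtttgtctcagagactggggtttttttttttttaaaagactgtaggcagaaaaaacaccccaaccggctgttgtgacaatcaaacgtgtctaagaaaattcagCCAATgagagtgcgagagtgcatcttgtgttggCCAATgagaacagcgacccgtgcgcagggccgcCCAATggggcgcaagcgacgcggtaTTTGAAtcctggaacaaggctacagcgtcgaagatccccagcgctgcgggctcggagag
CDK1, chr10:60778228-60778507, plus strand: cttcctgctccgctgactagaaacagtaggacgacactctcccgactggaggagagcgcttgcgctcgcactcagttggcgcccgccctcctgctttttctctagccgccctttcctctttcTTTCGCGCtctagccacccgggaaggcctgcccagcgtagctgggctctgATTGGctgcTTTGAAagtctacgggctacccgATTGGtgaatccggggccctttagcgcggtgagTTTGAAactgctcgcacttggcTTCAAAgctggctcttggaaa
Each of these windows held at least 1 CCAAT box, which 33.6% of promoters hold: 1 in CCNA2, 2 in CCNB1, 4 in CCNB2 and 2 in CDK1. CCNB2 held 1 CHR word 29 bases before the start and CDK1 held 3, and a CHR word together with a CCAAT box is found in 5.89% of promoters. The CDK1 window also held an E2F word 128 bases before the start. CDK1 has a second annotated start just upstream. The window of that start, which is not printed, held 1 E2F word, 1 CHR word and 1 CCAAT box. Only TTTGAA and TTCGAA were searched as CHR words, so other forms of the CHR are not marked in these windows, that of CCNA2 included. The CCNE1 window held no match, and a match or its absence in this window is a description of the letters. Promoters were matched for 7 of the 10 genes, and CCND1, CCNE2 and CDK2 are named only.

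The ST045849 difference was also taken within each array set. In the first set ST045849 differed from vehicle, over 3 against 3 arrays with times pooled, by -1.78 for CDK1, -1.60 for CCNA2, -1.30 for CDK2, -1.15 for CCNB2 and -1.13 for CCNB1, and in the second set by -0.50, -0.44, -0.37, -0.04 and -0.02. CDC25A (-1.52 and -1.33) and CCNE1 (-0.85 and -0.84) differed from vehicle by like amounts in both sets, and CCND3 by -0.60 and -0.25. In the first set 8 of 9 genes fell, all but CCND1 (-0.14, adjusted p = 0.226), where 32.2% of all genes were called and 1468 of 10345 fell. In the second set 5 fell, CCND1 (-0.34, adjusted p = 0.0477), CCNE1, CCNA2, CDK1 and CDC25A, where 5.85% of all genes were called and 269 of 10345 fell. The sets were found on the vehicle arrays of the same data, and the difference between them was not tested. Most arrays of the first set come from 24 hours and most of the second from 12 hours, so set and time are mixed in these values. For CCNB1 in the second set, ST045849 against vehicle read 8.64 against 8.27 and 8.01 against 7.99 at 12 hours. At 24 hours it read 7.83 against 8.28, so the pooled -0.02 averages opposite directions.

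**Figure D2:**
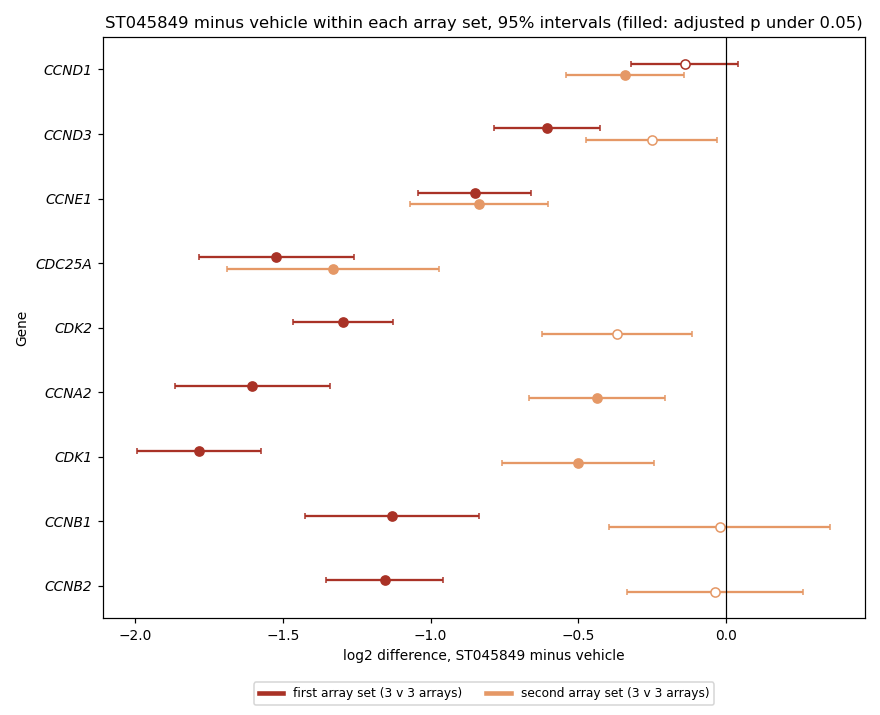
Log2 difference between ST045849 and vehicle within each array set (3 against 3 arrays, both times pooled), with 95% intervals; filled points passed an adjusted p under 0.05. CDC25A and CCNE1 have like values in both sets, whereas CCNB1 and CCNB2 lie near -1.13 and -1.15 in the first set and near 0 in the second.

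The sets also differed without the compound. Over the 18 arrays of the other treatments CCNB1 lay between 8.70 and 9.24 in the first set and between 7.99 and 8.36 in the second. CCNB2 lay between 10.40 and 10.68 against 9.78 and 10.30, and CCNA2 between 10.12 and 10.34 against 9.58 and 9.96. These 3 genes were higher in the first set without overlap, as were 0.599% of all genes, and the sets were defined on a component of these data. The other 6 overlapped, CDC25A with 8.46 to 8.80 and 8.40 to 8.90. On the 6 ST045849 arrays 5 genes lay lower in the first set without overlap (CCND3, CCNA2, CCNB2, CDK1 and CDK2), as did 9.09% of all genes. CCNA2 lay between 8.49 and 9.01 in the first set and between 9.29 and 9.34 in the second, and CCNB2 between 9.33 and 9.64 against 9.85 and 10.21.

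No gene's ST045849 effect differed detectably between 12 and 24 hours. The difference between the effects had its largest size for CCNA2 (-0.67 ± 0.32, unadjusted p = 0.0474, adjusted p = 0.767), then CCNB1 (-0.65) and CDK1 (-0.64, adjusted p = 0.792), and for CCNE1 it was 0.13. The limma test called 0 of the 9 genes, with 1 at an unadjusted p under 0.05, and 0% of all genes, with 6.47% at that unadjusted level. Without the arrays whose set is the minority at their time, 5 of the genes passed (CCNA2, CCNB1, CCNB2, CDK1 and CDK2, -0.90 to -1.44), and that comparison sets the second set at 12 hours against the first at 24 hours. Vehicle and scrambled arrays together differed between 24 and 12 hours by -0.10 to 0.19, and 0 of the 9 genes and 0% of all genes were called (0 genes of the 9 at an unadjusted p under 0.05, and 5.64% of all).

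With siOGT no gene of the 9 passed the test. Under limma 0 of 9 genes were called at 12 hours, where 0.00967% of all genes were called, or at 24 hours, where 0.126% were called. At an unadjusted p under 0.05 there were 0 of the 9 at 12 hours (4.29% of all genes) and 2 at 24 hours (12.8% of all genes): CCND3 (-0.26 ± 0.11, adjusted p = 0.300) and CCNE1 (-0.31 ± 0.13, adjusted p = 0.321). CCNE1 read 8.20, 8.18 and 8.35 with scrambled and 7.83, 8.13 and 7.85 with siOGT at 24 hours, and 8.32, 8.46 and 8.35 against 8.35, 8.33 and 7.78 at 12 hours. The lower siOGT readings, 7.78, 7.83 and 7.85, were those of the first set, within which CCNE1 fell by 0.48 (adjusted p = 0.0367, where 0.725% of all genes were called), and in the second set it differed by -0.05 (adjusted p = 0.996). CDC25A read 8.56, 8.73 and 8.78 with scrambled and 8.90, 8.61 and 8.59 with siOGT at 12 hours, and 8.46, 8.49 and 8.65 against 8.56, 8.49 and 8.78 at 24 hours. Its differences of 0.01 (95% interval -0.27 to 0.29) and 0.08 (-0.20 to 0.35) had intervals that include 0. Intervals were wide for the mitotic genes, -0.65 to 0.67 for CCNB1 and -0.56 to 0.40 for CDK1 at 24 hours.

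**Figure D3:**
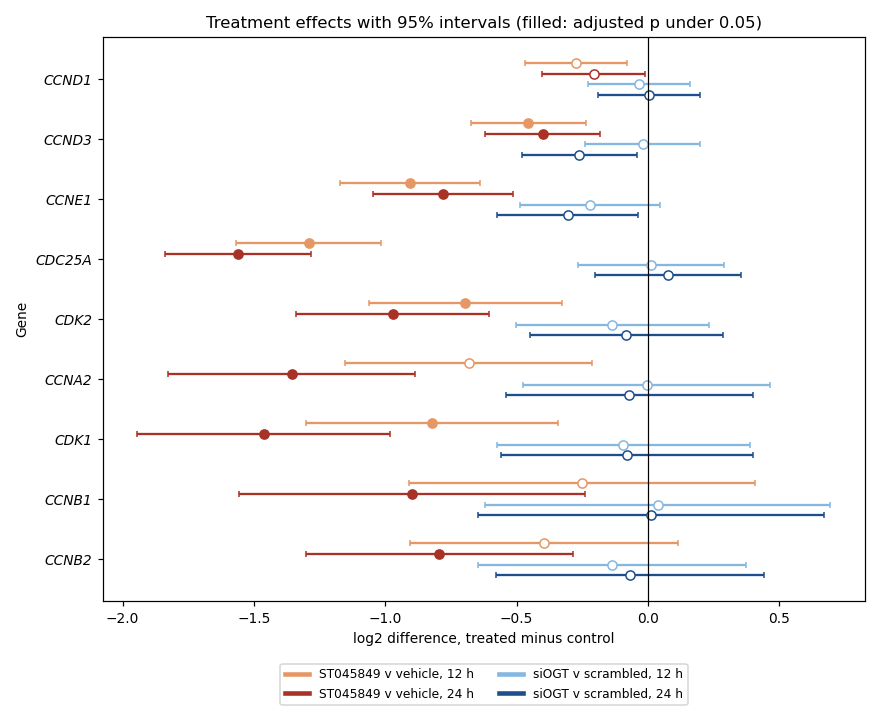
Log2 difference between treated and control arrays for each gene with 95% intervals, for the compound against its vehicle and siOGT against its scrambled control at 12 and 24 hours (3 against 3 arrays each, limma); filled points passed an adjusted p under 0.05. The CDC25A intervals of the compound, -1.57 to -1.01 and -1.84 to -1.28, lie apart from those of the siRNA.

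The effects of compound and siRNA were compared directly, averaged over both times. The ST045849 effect was lower than the siOGT effect for 5 of 9 genes, where 20.9% of all genes were called and 9.12% were lower: CDC25A (-1.47 ± 0.13, adjusted p = 3.38e-07), CDK1 (-1.06, adjusted p = 0.00305), CCNA2 (-0.98, adjusted p = 0.00443), CDK2 (-0.72, adjusted p = 0.00668) and CCNE1 (-0.58, adjusted p = 0.00338). CCND3 (-0.29, adjusted p = 0.0569), CCND1 (-0.23, adjusted p = 0.0921), CCNB2 (-0.49, adjusted p = 0.162) and CCNB1 (-0.60, adjusted p = 0.189) did not pass. CCND3 passed on leaving out any 1 of 5 arrays: replicate 2 of ST045849 at 12 or 24 hours, of vehicle at 24 hours or of siOGT at 24 hours, or replicate 1 of scrambled at 24 hours (adjusted p = 0.0186 to 0.0484). CCND1 passed without siOGT replicate 3 at 12 hours (-0.29, adjusted p = 0.0191). With median scaling both D-type cyclins passed (CCND3 -0.48, adjusted p = 0.0184, and CCND1 -0.43, adjusted p = 0.0225). That scaling put the median of all genes at -0.15, and relative to it the differences were -0.33 for CCND3 and -0.28 for CCND1. CCND3 also passed with no background correction or the authors' processed values (both -0.27, adjusted p = 0.0300). With the array set and its effect in each treatment, CCND3, CCNB1 and CCNB2 passed (adjusted p = 0.0184, 0.00952 and 0.00738), and CCNB2 passed without the minority-set arrays (-0.56, adjusted p = 0.0397). Scrambled siRNA did not differ detectably from vehicle: 0 of 9 genes were called, where 0.155% of all genes were called, and 0 had an unadjusted p under 0.05, where 10.4% of all genes did, and the differences ran from -0.15 for CDK1 to 0.18 for CCNE1.

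Over the 8 groups the ST045849 means were the lowest 2 for all 9 genes. The share of all genes with this order was not counted, so how common it is cannot be told. The other 6 group means of CDC25A lay between 8.53 and 8.70, those of CCNE1 between 7.94 and 8.38, those of CDK1 between 11.16 and 11.60 and those of CCNB1 between 8.48 and 8.73. In the order of these 6 means, 43 of 45 neighbouring pairs differed by less than the larger SD of the pair. The exceptions were scrambled at 12 and 24 hours for CCND3 (24 hours higher) and for CCNE1 (12 hours higher). Neighbours in a sorted order are the closest pairs, and pairs further apart were not compared in this way. The count therefore does not show that the 6 groups were alike.

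The genes followed each other over the 24 arrays to different degrees. CCNA2 and CDK1 had the highest correlation (Pearson r = 0.962), and CDK2 followed CCNA2 (0.949) and CDK1 (0.947), while CCNE1 was nearest to CDC25A (0.908). CCND1 and CCNB1 were the least alike (0.122). The arrays share treatment and set, so these values are descriptions. Among all genes measured, CDC25A was most like UHRF1 (0.964), MCM4 (0.962) and EXO1 (0.958), CCNE1 like MCM5 (0.950), UNG (0.936) and MCM6 (0.933), and CDK2 like CHEK1 (0.963). CDK1 was most like AURKB (0.966), CCNA2 like KIFC1 (0.977), CCNB2 like KIF20A (0.979), CCNB1 like PARPBP (0.928), CCND3 like SUV39H1 (0.951) and CCND1 like SURF6 (0.888).

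**Figure D4:**
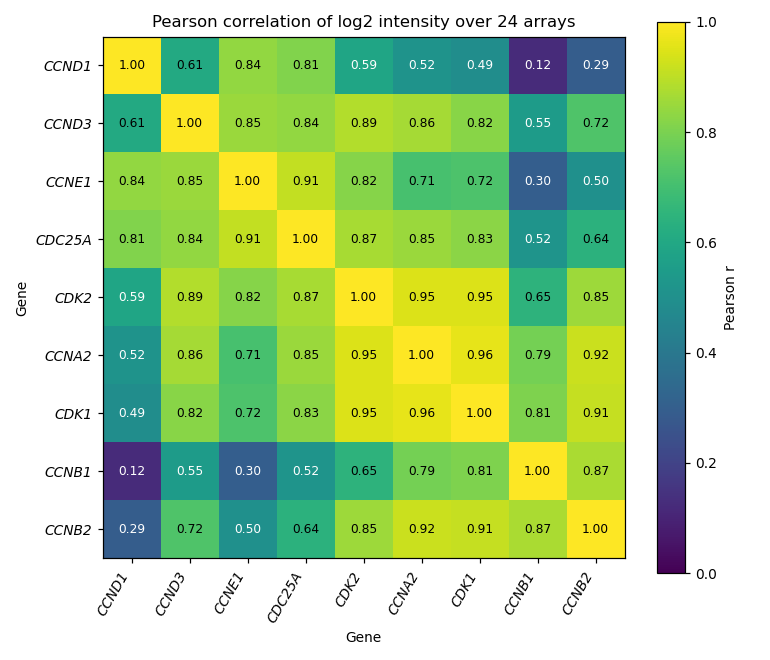
Pearson correlation of normalized log2 intensity between the 9 measured genes over 24 arrays; the colour scale runs from 0 to 1. The block of CDK2, CCNA2 and CDK1 holds 0.947 to 0.962, and the lowest value is that of CCND1 and CCNB1, 0.122.

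Genes that act on these complexes both rose and fell with ST045849, as counted over lists. Of all genes, 5.28% fell at 12 hours and 10.7% fell at 24 hours, and 593 and 1406 of 10345 rose. Of the 4 other genes of the CDC25 and inhibitory kinase list, 2 fell at 12 hours and 3 at 24 hours: WEE1, a kinase that inhibits CDK1 and CDK2 (-0.62, adjusted p = 0.00677, and -1.24, adjusted p = 3.65e-06), PKMYT1, which inhibits CDK1 (-0.96 and -1.23, adjusted p = 0.00421 and 0.000229), and, at 24 hours, CDC25B (-0.64, adjusted p = 0.0281), while CDC25C stood at -0.57 (adjusted p = 0.0870). Both an activating phosphatase and the inhibitory kinases thus fell. Of 8 genes for cyclin and CDC25A degradation that were measured, of 9, 2 fell at 12 hours and 6 at 24 hours, among them FBXO5, an inhibitor of the anaphase-promoting complex (-0.69 and -1.43), and SKP2, a subunit of the ligase for CDKN1B (-0.46 and -0.67). CCNF (-1.05) and UBE2C (-0.99), a ubiquitin-conjugating enzyme of the anaphase-promoting complex, passed at 24 hours and not at 12 hours, and no gene's difference between times passed. Of 5 CDK-activating kinase and CKS subunits 0 were called at 12 hours, with 2 at an unadjusted p under 0.05 (25.5% of all genes), and at 24 hours CKS2 (-1.03, adjusted p = 0.000256) and CKS1B (-0.48, adjusted p = 0.0187) fell and CDK7 rose (0.38, adjusted p = 0.00795).

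Of 5 measured CDK inhibitors, of 8, CDKN1B rose at both times (0.35 and 0.38, adjusted p = 0.0314 and 0.00935). Over all 10345 genes, 593 rose at 12 hours and 1406 rose at 24 hours. CDKN3, a phosphatase of CDK1 and CDK2 that itself peaks late in the cycle, fell at 24 hours (-0.93, adjusted p = 0.00418), where 10.7% of all genes fell. CDKN2A stood at 0.14 and 0.24 (adjusted p = 0.464 and 0.131). The D cyclin partner CDK4 (-0.28 and -0.15, adjusted p = 0.118 and 0.352) and CDK3 were the 2 partner genes measured of 6. Of these, 0 were called at either time (2 and 0 at an unadjusted p under 0.05, as were 25.5% and 36.1% of all genes). For the 2 lists that follow, the share of all genes that fell was 5.28% at 12 hours and 10.7% at 24 hours. Of 8 proliferation markers 4 fell at 12 hours, MCM2 (-1.17), BIRC5 (-0.88), TYMS (-0.68) and PCNA (-0.66), and 6 at 24 hours, with MCM2 at -1.40 and PCNA at -1.32. Their median was -0.60 at 12 hours and -1.01 at 24 hours, beside -0.68 and -0.90 for the cyclins, CDKs and CDC25A. Of the 7 luminal markers 3 fell at both times, TMPRSS2 (-0.79 and -0.90), KLK3 (-0.76 and -0.999) and KLK2 (-0.70 and -0.65), and FOLH1 rose at 12 hours (0.36, adjusted p = 0.0371), and their part in the results above was not tested. With siOGT 0 genes of any of these lists were called by limma at either time, where 0.00967% and 0.126% of all genes were called. At an unadjusted p under 0.05 there were 1 CDK inhibitor and 1 luminal marker, both at 24 hours, where 12.8% of all genes reached that level.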

How the data were processed

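LNCaP RNA was read on 24 one-colour Illumina arrays, 8 groups of 3. Raw probe intensity and a detection p-value per probe were deposited, per the file headers; the submitters' processing notes name GenomeStudio 2011.1, with no role stated. Intensities were background corrected with limma 3.58.1 in R 4.3.3 (neqc, offset 16, quantile normalization). Probes were kept if their detection p was below 0.01 on 3 or more arrays (17633 of 47323), and the probe with the highest mean stands for a gene (10345 genes). Genes were named from the platform annotation, and 4010 kept probes had no single name. Groups come from the labels. One fit of 8 group means (lmFit, eBayes) was adjusted by Benjamini-Hochberg over all genes, and intervals are 95%. The number of arrays limits the precision. The test was checked on simulated data. The deposited table of the authors' processed intensity (array medians 116.356 to 116.393) served as an alternative. No arrays were identical (0 pairs).

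The members and lists were chosen with earlier results of these data known. All members are named, with up to 4 genes per list by smallest p over the treatment comparisons, the 3 most correlated genes per member (the first alone for some) and OGT. Deviations of same-numbered replicates from their group means correlated at -0.07 to 0.27 over 12 pairs, with 3 of 12 over 0.1. For 6 of the 12, mostly siOGT arrays, the best match was the control array of the same number. Replicate numbers also go with the array sets at each time. The main fit does not use the numbers as pairs, and a fit blocked on them is given below. The array sets, and the fits within them, were chosen after seeing the data.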

Additional observations from a re-analysis of the deposited data

How the results depend on the processing

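No value called in the comparisons above turned direction under any alternative run. CCNB1 at 12 hours, which was not called, ranged from -1.13 to 0.20. The -1.13 is from the first array set alone with times pooled, so it is not a 12 hour value. The ST045849 fits within a set pool both times, so they do not test either time alone. CDC25A and CCNE1 were called for ST045849 at both times under all other alternatives, and in the fits within both sets. The count of members that fell at 12 hours was 5. It became 2 without the arrays of the minority set at their time and 2 with the compared groups alone. Within the first array set, with times pooled, the count was 8. On leaving out each array the 12 hour count lay between 2 and 5. The 24 hour count of 8 became 5 within the second set, with times pooled, and lay between 5 and 8 on leaving out each array. The siOGT count averaged over times, 0, became 1 within the first set. The count for a difference of the ST045849 effect between times, 0, became 5 without minority-set arrays, as did the count for controls between times, 0, which became 3. The 5 genes whose ST045849 effect was lower than the siOGT effect became 8 with the array set and its effect in each treatment, and 5 to 6 on leaving out each array. The counts for the siRNA, the controls and the difference between times stayed at 0 on leaving out each array.

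Blocking on the replicate number (paired analysis) changed no call of a member (5 at 12 hours, 8 at 24 hours), and gave 33 genes in place of 16 for scrambled against vehicle and 6 in place of 13 for siOGT at 24 hours; it could not be fitted for the controls between times. Over all genes, the 1139 calls at 12 hours became 472 with median scaling, 285 without minority-set arrays, 452 with the compared groups alone, 1765 with set effects per treatment and 486 to 1052 on leaving out each array. The 2516 calls at 24 hours became 1705 to 2414 on leaving out each array. The within-set fits, with times pooled, called 3330 and 605. The 2158 calls of ST045849 against siOGT effects became 1361 without minority-set arrays and split 1215 higher and 943 lower, against 319 and 1564 with median scaling. The 20 siOGT calls averaged over times ranged from 1 within the second set alone to 87 with set effects per treatment, the 13 at 24 hours from 0 to 30, and the 1 at 12 hours from 0 to 6. The cause of these changes was not tested. CCNE2 was below detection, so no statement on its change can be made.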

Other observations

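Cyclins and CDKs outside the core cycle were counted as a list of their own under ST045849. Of 23 measured genes of this kind, of 27 listed, 0 were called by limma at 12 hours (3 at an unadjusted p under 0.05, as with 25.5% of all genes) and 2 rose at 24 hours: CDK19, a kinase of the Mediator complex (0.44, adjusted p = 0.0157), and CCNG2, an atypical cyclin linked to growth arrest (0.65, adjusted p = 0.0397). Of all genes, 11% were called at 12 hours and 24.3% at 24 hours. At 12 hours CDK19 stood at 0.20 and CCNG2 at 0.60 (adjusted p = 0.350 and 0.0895). CDK20 (0.36, adjusted p = 0.0752) and CDK10 (0.04, adjusted p = 0.754) did not pass at 24 hours. The median of the 23 was -0.04 at 12 hours and 0.11 at 24 hours, where the median of all genes was 0.00 and 0.03. With siOGT 0 of the 23 were called at either time, and 2 had an unadjusted p under 0.05 at 24 hours, as with 12.8% of all genes.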
